A study of Mus musculus with 6 samples.

Results

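The adipogenic-only regions are stretches of the mouse genome at which an Lsd1 peak was called in wild-type C2C12 cells kept in adipogenic medium and in neither of the other conditions of the same ChIP-seq experiment. They were chosen by the peak calls themselves: the peaks of all 3 deposited lists were pooled, peaks overlapping by at least 1 bp were merged, and a merged region was kept when it held wild-type adipogenic peaks only. This gave 2097 of 56729 merged regions (3.70%), each made of a single peak. They are 11.1% (95% Wilson interval 10.7 to 11.6%) of the 18893 peaks in the wild-type adipogenic list.

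C2C12 is a mouse myoblast line that fuses into myotubes in low serum and can be driven towards fat cells by adipogenic inducers. The study mapped Lsd1 by ChIP-seq on day 1 of differentiation in 3 conditions, with 1 ChIP and 1 input library each. Wild-type cells were in myogenic medium with 2% horse serum. A second wild-type culture was in adipogenic medium with 10% FCS and a cocktail of rosiglitazone (1 µM), dexamethasone (5 µM), isobutylmethylxanthine (0.5 mM), insulin (850 nM), indomethacin (125 nM) and the thyroid hormone T3 (1 nM). LSD1(OE) cells, which carry a lentiviral, tetracycline-dependent construct of Flag-tagged LSD1 that is switched on with doxycycline, were in the same adipogenic medium. All cells were fixed with 1% PFA for 6 min, and all ChIPs used an antibody against the C-terminus of Lsd1. With 1 library per condition there is no replicate spread, so no test between conditions was possible. The intervals given here cover counting error only. The level of LSD1, the cell line and doxycycline cannot be told apart between the adipogenic libraries, nor medium and culture between the wild-type libraries.

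Lsd1 (Kdm1a) is a histone demethylase that removes methyl groups from the tail of histone H3 and usually works inside corepressor complexes with Rcor1 and histone deacetylases. It has no DNA motif of its own and reaches promoters and enhancers through these complexes and through sequence-specific transcription factors. Several factors have textbook roles in the media used here: dexamethasone activates the glucocorticoid receptor, rosiglitazone activates Pparg, cAMP signalling and glucocorticoids raise C/EBP factors early in adipogenesis, and MyoD-type factors bind E-boxes in myoblasts.

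The sequences of 5 adipogenic-only regions are given as examples. They were picked for a high score, a motif match or a promoter and are not typical of these regions. Each is the 300 bases around the summit, read 5′ to 3′ on the plus strand of mm10 (GRCm38.p6, RefSeq), with matches to the C/EBP, AP-1, MyoD-type E-box and glucocorticoid receptor motifs in capitals and positions counted from 1 at the 5′ end. The first is the region with the highest score of all, at chr4:102432483-102432782 in an intron of Pde4b, with a C/EBP match (TTGCNNAA) at position 21. The second, at chr14:33347868-33348167, is the strongest with a MyoD-type E-box (CAGCTG), at positions 103 and 190. The third, at chr19:32320305-32320604, is the strongest with an AP-1 match (TGANTCA), at position 257, and it also holds an E-box at position 110. The fourth, at chr6:72162175-72162474, is the strongest with the glucocorticoid receptor palindrome (GNACANNNTGTNC), at position 110, and it has an AP-1 match at position 248. The last, at chr15:82274126-82274425, is the strongest within 2000 bp of a transcription start site (TSS), with an E-box at position 224. Each is named by the gene with the nearest TSS.
Pde4b: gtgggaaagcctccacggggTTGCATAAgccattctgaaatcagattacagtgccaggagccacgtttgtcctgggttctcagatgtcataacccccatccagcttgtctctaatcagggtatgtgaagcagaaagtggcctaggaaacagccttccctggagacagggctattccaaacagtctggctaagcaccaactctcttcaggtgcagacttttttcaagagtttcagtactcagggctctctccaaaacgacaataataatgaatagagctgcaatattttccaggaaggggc
Mapk8: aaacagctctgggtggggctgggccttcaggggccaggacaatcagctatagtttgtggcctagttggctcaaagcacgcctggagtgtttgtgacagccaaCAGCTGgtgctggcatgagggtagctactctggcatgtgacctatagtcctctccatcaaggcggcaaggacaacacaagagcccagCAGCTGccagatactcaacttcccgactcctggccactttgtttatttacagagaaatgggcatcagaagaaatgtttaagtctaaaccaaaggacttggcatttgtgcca
Sgms1: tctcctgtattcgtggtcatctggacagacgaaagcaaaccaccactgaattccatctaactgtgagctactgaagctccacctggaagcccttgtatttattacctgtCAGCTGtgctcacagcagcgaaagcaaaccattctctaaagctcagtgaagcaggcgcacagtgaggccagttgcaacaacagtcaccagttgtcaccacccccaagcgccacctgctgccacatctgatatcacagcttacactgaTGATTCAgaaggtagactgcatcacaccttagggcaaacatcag
4933431G14Rik: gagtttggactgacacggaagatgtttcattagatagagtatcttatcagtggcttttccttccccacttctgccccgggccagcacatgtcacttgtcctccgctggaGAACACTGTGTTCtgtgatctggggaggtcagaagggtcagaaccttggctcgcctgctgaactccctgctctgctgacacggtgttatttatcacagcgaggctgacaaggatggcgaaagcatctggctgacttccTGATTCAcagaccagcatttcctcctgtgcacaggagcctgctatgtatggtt
Septin3: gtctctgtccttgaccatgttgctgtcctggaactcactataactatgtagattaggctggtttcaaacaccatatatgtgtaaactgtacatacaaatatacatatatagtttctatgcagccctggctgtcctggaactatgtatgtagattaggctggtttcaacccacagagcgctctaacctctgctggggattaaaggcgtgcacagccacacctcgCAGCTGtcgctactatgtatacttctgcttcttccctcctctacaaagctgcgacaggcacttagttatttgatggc
Matches to the other motifs searched are left in lower case, such as a STAT match (TTCNNNGAA) in the Pde4b window. A match is a run of letters and not a site known to be bound. The Cops8 region, which ranked just below the Pde4b region in score, held none of the 17 motifs that were searched.

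The adipogenic-only regions were weak peaks. Their score, which is 10 times −log10 of the MACS p-value and had to reach 50 for a call, had a median of 67.4 (quartiles 56.5 and 85.8) and a maximum of 297. The peaks of the same list that overlapped peaks of both other libraries had a median score of 145, those shared with LSD1(OE) cells 85.8 and those shared with myogenic medium 82.7. The rule used the peak calls, so these scores are a description of how the regions were selected and no finding of their own. The median region was 913 bp long and held 60 tags, with a range of 35 to 219 tags, against 1262 bp and 100 tags for peaks found in all 3 libraries. Its tag density was 1.04 tags per kb for every 1000000 filtered tags, against 1.20 in peaks of all 3 libraries. The FDR that MACS gave had a median of 0.43%.

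**Figure D1:**
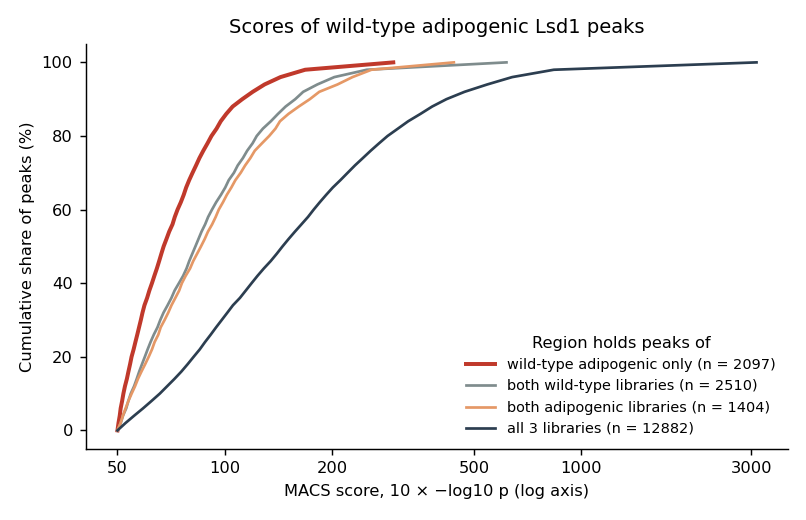
Cumulative share of wild-type adipogenic peaks (y axis, percent) up to a given MACS score (x axis, log scale), by the libraries whose peaks the region holds. The adipogenic-only curve rises first, with a median score of 67.4, and the curve of peaks found in all 3 libraries lies far to the right, with a median of 145.

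Most adipogenic-only regions came from the bottom of the adipogenic list. They made up 26.9% of the peaks in its lowest score quartile group (1269 of 4722), 13.04% in the next, 4.07% in the third and 0.423% in the highest (20 of 4724). In all, 307 had a score of at least 100, 67 of at least 150 and 20 of at least 200. Their tags were then scaled to the smaller depth of the other libraries. Of 2097 regions, 2092 held as many tags as the smallest peak called in myogenic medium (27 tags). All 2097 held as many as the smallest in LSD1(OE) cells (30 tags). The adipogenic calls nearly fixed this in advance, since the smallest scaled counts were 25.3 and 30.2 tags. It therefore shows nothing about why the regions were not called in those libraries. In tag density, which the peak calls also shaped, 4.39% reached the median of the myogenic peaks and 14.4% that of the LSD1(OE) peaks. The 5th percentile of those peaks was reached by 63.9 and 91.6%. These shares too describe how the regions were selected.

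Being absent from a peak list is not the same as having no Lsd1 tags, and many adipogenic-only regions lay close to a peak of another library. The gap from a region's edge to the nearest such peak had a median of 3198 bp (quartiles 853 and 9712 bp). It was at most 200 bp for 157 regions, at most 1000 bp for 582 (27.8%) and at most 10000 bp for 1584 (75.5%), while 100 regions had no such peak within 50000 bp. The region nearest Rad23b, which encodes a DNA repair factor, missed an LSD1(OE) peak by 4 bp. The regions nearest Map3k20, a stress-activated kinase gene, and Slc38a2, an amino acid transporter gene, each missed a myogenic peak by 7 bp. Just on the other side of the rule, the peaks nearest Lnx1 and Pacs2 were left out for an overlap of 2 bp and the peak nearest Arhgef10l for 3 bp.

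**Figure D2:**
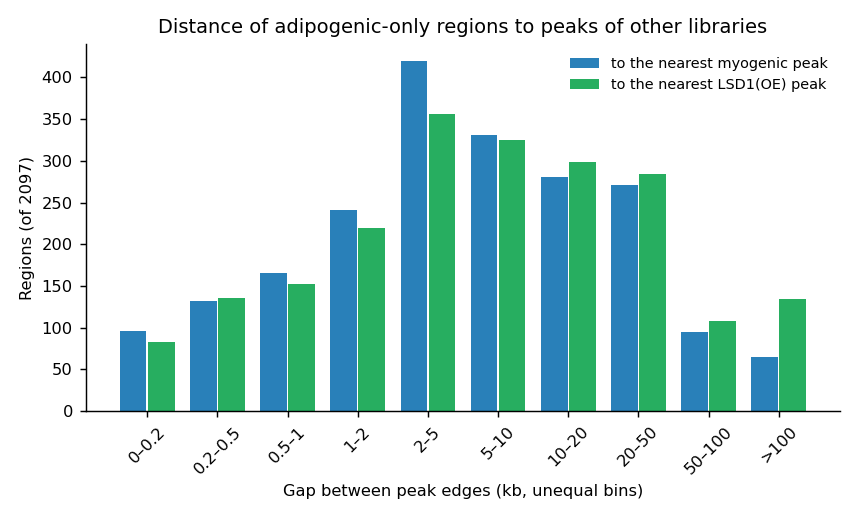
Number of adipogenic-only regions (y axis) by the gap in kb from their edge to the nearest myogenic peak (blue) or LSD1(OE) peak (green), in bins of unequal width (x axis). In the median region the gap was 4943 bp to a myogenic peak and 6189 bp to an LSD1(OE) peak.

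By location, the adipogenic-only regions lay away from promoters. The centre of 174 of them, or 8.30% (7.19 to 9.56%), was within 2000 bp of a curated RefSeq TSS. Of the others, 983 (46.9%) were intergenic, 890 (42.4%) intronic, 31 exonic and 19 in a 3′ untranslated part of a gene. The median distance to the nearest TSS was 23384 bp, and 304 regions (14.5%) were over 100000 bp from any. Among peaks found in all 3 libraries 44.7% were at promoters and the median distance was 3986.5 bp, so that the promoter share of adipogenic-only regions differed by −36.4 points (Newcombe interval of the difference −37.8 to −34.9).

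This gap in promoter share did not follow the score. In the first 3 score quartile groups 8.20, 8.28 and 9.90% of adipogenic-only regions were at promoters, against 42.7, 44.1 and 45.3% of peaks found in all 3 libraries. None of the 20 regions in the highest group was, which at this number allows a share of up to 16.1% (Wilson), against 45.3%.

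**Figure D3:**
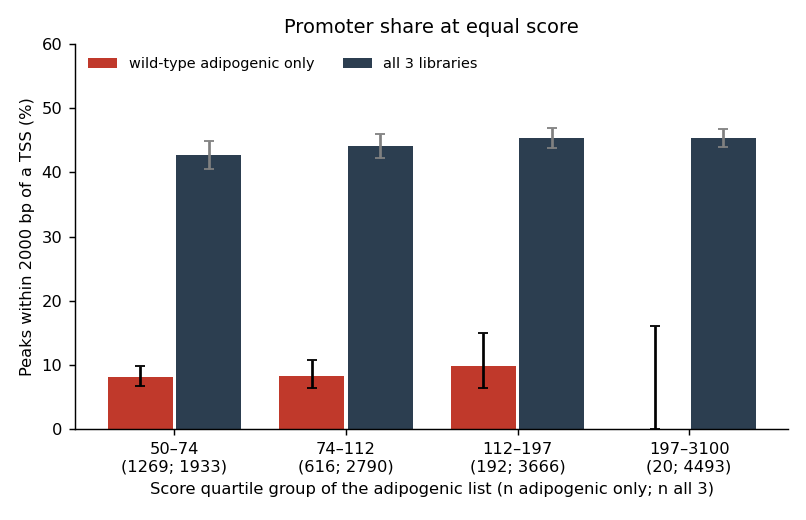
Share of peaks within 2000 bp of a TSS (y axis, percent) in each score quartile group of the adipogenic list (x axis) for adipogenic-only regions (red) and peaks of all 3 libraries (dark), with 95% Wilson intervals as bars. Red columns stay between 0 and 9.90% and dark ones between 42.7 and 45.3% in all 4 quartile groups.

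Other classes of regions were less far from the adipogenic-only regions. Peaks shared by both adipogenic libraries had a promoter share of 9.05%, and the difference of −0.75 points had an interval from −2.70 to 1.13. Regions called in LSD1(OE) cells only had 9.81%, a difference of −1.52 points (−2.75 to −0.15). Regions of the myogenic list only had 16.7% (−8.41 points, −9.63 to −7.06), and peaks shared by both wild-type libraries 26.0% (−17.7 points, −19.8 to −15.6). The regions within 1000 bp of a peak of another library were at promoters more often, 12.5% (10.1 to 15.5%), than the 1515 farther away, 6.67% (5.52 to 8.04%). The share did not fall steadily with distance, since it was 9.75% (7.47 to 12.6%) in the 513 regions over 10000 bp away.

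The 8 regions with the highest scores lay in introns or between genes. The strongest, chr4:102430864-102433223, was in an intron of Pde4b, which encodes a phosphodiesterase that breaks down cAMP. It held 187 tags with a score of 297, 10488 bp downstream of a Pde4b TSS. The region nearest Cops8, which encodes a subunit of the COP9 signalosome, held 146 tags and scored 281, at chr1:90722605-90724281. The region nearest Mapk8, the gene of the stress kinase JNK1, held 145 tags and scored 278. It lay inside an intron of Arhgap22, so its nearest gene is not the gene that contains it.

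The next were a region with 165 tags and a score of 272 nearest Mcph1, a gene of chromosome condensation, and one with 155 tags and a score of 264 nearest Abca1, the cholesterol efflux transporter. The Mcph1 region was isolated: the nearest myogenic peak was 91647 bp and the nearest LSD1(OE) peak 144423 bp away. A region with 114 tags and a score of 244 was nearest Hnrnpa2b1, an RNA-binding protein gene, inside an intron of Nfe2l3. The region nearest Tars, a threonyl-tRNA synthetase gene, held 151 tags and scored 233. The region nearest Sla, a Src-like adaptor gene, held 163 tags and scored 230, in an intron of both Sla and Tg, the thyroglobulin gene. The Tars region was 706 bp from a myogenic peak and 961 bp from an LSD1(OE) peak.

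Pde4b stood among the genes with most adipogenic-only regions. Its TSSs were the nearest to 6 of them, with scores of 60.2, 67.5, 68.7, 83.9, 179 and 297 and tag counts of 55, 62, 61, 66, 113 and 187. The regions of 179 and 297 flanked the same internal TSS, one 2017 bp upstream and the other 10488 bp downstream of it. The gene is on chr4:102254742-102607275, plus strand, and isobutylmethylxanthine in the adipogenic medium is a general phosphodiesterase inhibitor. Pde4b also carried peaks of every library: 17 adipogenic peaks in all, 14 myogenic and 23 of LSD1(OE) cells. Of the 17, 6 were adipogenic-only, 6 were shared with both other libraries, 4 with LSD1(OE) cells and 1 with myogenic medium. The tallest peak at the gene was an LSD1(OE) peak with a score of 921, 72.0 to 73.7 kb downstream of the internal TSS, which overlapped adipogenic and myogenic peaks.

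**Figure D4:**
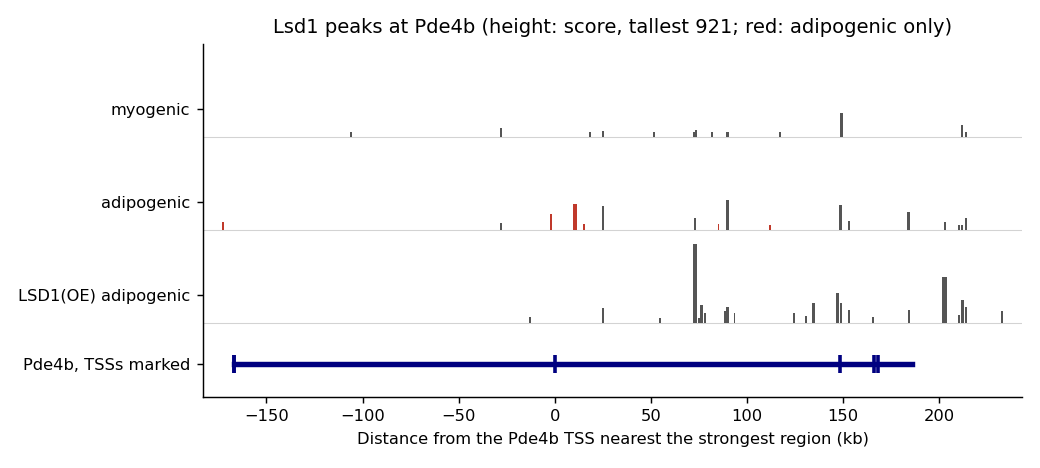
Lsd1 peaks at Pde4b by their distance in kb from the internal TSS nearest the strongest region (x axis), one row per library, with column height proportional to the MACS score (tallest 921) and the gene and its TSSs in blue. The 6 adipogenic-only peaks (red) are spread from 173 kb upstream to 112 kb downstream of that TSS, among peaks that other libraries share (grey). Peaks narrower than 1 kb are drawn 1 kb wide.

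At promoters, the strongest adipogenic-only region was the one printed above at Septin3, which encodes a septin GTPase. It was centred 35 bp from the TSS, with 137 tags and a score of 167, and 50.7% of its summit window was repeat-masked. The promoter region of Gm12596, an unnamed gene model, held 89 tags and also scored 167. Acoxl, an acyl-CoA oxidase-like gene, had a promoter region with 90 tags and a score of 162. The promoter region of Nacad held 104 tags with a score of 160, and no peak of another library lay within 18958 bp of it.

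The promoter region of Riok3, an atypical protein kinase gene, scored 149 with 77 tags. Dhrs9, a short-chain dehydrogenase gene, had one of 147 with 83 tags, 25 bp from its TSS. The gene model 1700027A15Rik had one of 146 with 99 tags, and Rps26, a ribosomal protein gene, one of 146 with 85 tags. None of these 8 promoters belonged to a gene of the fixed lists of adipogenic or myogenic genes.

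In sequence, the adipogenic-only promoters were poorer in CpG than the promoters with a peak in all 3 libraries. In the 174 promoter windows the median GC content was 52.0% and the median CpG ratio (observed over expected CpG) 0.279, and 46 windows (26.4%) had a CpG ratio above 0.6. At promoters with a peak in all 3 libraries the medians were 63.0% and 0.744, with 68.3% of windows above 0.6. Promoter regions of LSD1(OE) cells only were like the adipogenic-only ones in this respect, with a median CpG ratio of 0.314 and 25.5% of windows above 0.6, and promoters of both adipogenic libraries had 0.405 and 35.4%. Over all 32851 RefSeq promoter sequences of the same length 35.8% were above 0.6. The GC box (GGGCGG) was found in 24.7% of adipogenic-only promoter windows and 58.4% of those of all 3 libraries, a difference of −33.7 points (−39.6 to −26.6). It was in 24.8% of promoter windows of LSD1(OE) cells only and in 35.7% of all RefSeq promoters.

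The match to the RUNX motif (TGTGGT) was more frequent in adipogenic-only promoter windows, 26.4%, than in promoter peaks of all 3 libraries, 13.1%, by 13.3 points (7.24 to 20.4). AP-1 matches were also more frequent, 14.4% against 7.40% (2.47 to 12.98 points). Promoter windows of LSD1(OE) cells only had 16.6% for RUNX and 9.93% for AP-1, and all RefSeq promoters 16.8% and 7.81%. The windows differ in GC content as given above, and its part in these differences was not tested.

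Outside promoters, the 1923 adipogenic-only windows had a median GC content of 47.0%, a median CpG ratio of 0.185 and a mean repeat content of 16.7%. Distal peaks of all 3 libraries had 51.7%, 0.213 and 11.8%. Windows of the same size 3000 bp to either side of the adipogenic-only summits had a GC content of 44.7% and a repeat content of 26.0%. The adipogenic-only summits were therefore richer in GC and poorer in repeats than their own surroundings, and poorer in GC than the summits found in every library. The part of GC and repeat content in the motif differences given next was not tested.

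The motifs of MyoD-type and AP-1 factors were more frequent at the distal adipogenic-only summits than in their own flanks. The E-box CAGCTG was found in 25.8% (497 of 1923) against 13.1% of flanks, a difference of 12.8 points (10.6 to 15.02), and AP-1 in 21.0% (403) against 8.76%, a difference of 12.2 points (10.2 to 14.3). RUNX matches were in 26.9% against 22.7% of flanks (1.85 to 6.62 points), and C/EBP matches in 15.6% (300) against 12.01% (1.70 to 5.55 points). Of the 17 motifs, 5 had an interval above 0 against the flanks and none had one below 0. The other of the 5 was the CTCF core, with 3.02% against 1.61% (0.59 to 2.34 points). Distal peaks of all 3 libraries also exceeded their own flanks, with 37.7% against 15.7% for the E-box and 29.0% against 9.19% for AP-1.

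Against distal peaks of all 3 libraries the same motifs were mostly rarer. The E-box share differed by −11.8 points (25.8 against 37.7%, interval −14.1 to −9.54) and the AP-1 share by −8.08 points (21.0 against 29.0%, −10.1 to −5.93). RUNX, the TEAD motif (CATTCC) and the GC box differed by −3.44, −3.12 and −7.81 points, all with intervals below 0. Within the lowest score quartile group the E-box difference was −8.77 points (−12.5 to −5.05) and the AP-1 difference −4.10 (−7.57 to −0.62). In all, 7 motifs were lower and 1 higher. Against distal regions of LSD1(OE) cells only the direction was the other way, with 4.57 points more AP-1 (2.67 to 6.57) and 3.16 points more E-box matches (1.09 to 5.31). Against regions of the myogenic list only the differences were 0.68 points for AP-1 and 0.78 for the E-box, with intervals that included 0 (−1.19 to 2.65 and −1.24 to 2.89).

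The 1 motif that was more frequent was C/EBP, at 15.6% against 13.1% in distal peaks of all 3 libraries (2.49 points, 0.75 to 4.35). GC content also differed between these windows, as given above, and its part was not tested. Regions of the myogenic list only had a C/EBP match in 11.4% (adipogenic-only regions 4.25 points higher, 2.62 to 6.00), and regions of LSD1(OE) cells only in 15.2%, a difference of 0.43 points with an interval from −1.27 to 2.25. Peaks shared by both adipogenic libraries had the highest share, 19.7%, and the adipogenic-only regions differed from it by −4.13 points (−6.89 to −1.44). In the lowest score quartile group the difference to peaks of all 3 libraries was 1.60 points with an interval that included 0 (−1.37 to 4.55), and that to peaks shared by both adipogenic libraries 0.14 points (−3.98 to 3.90), so that these contrasts were not seen among the weakest peaks alone.

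**Figure D5:**
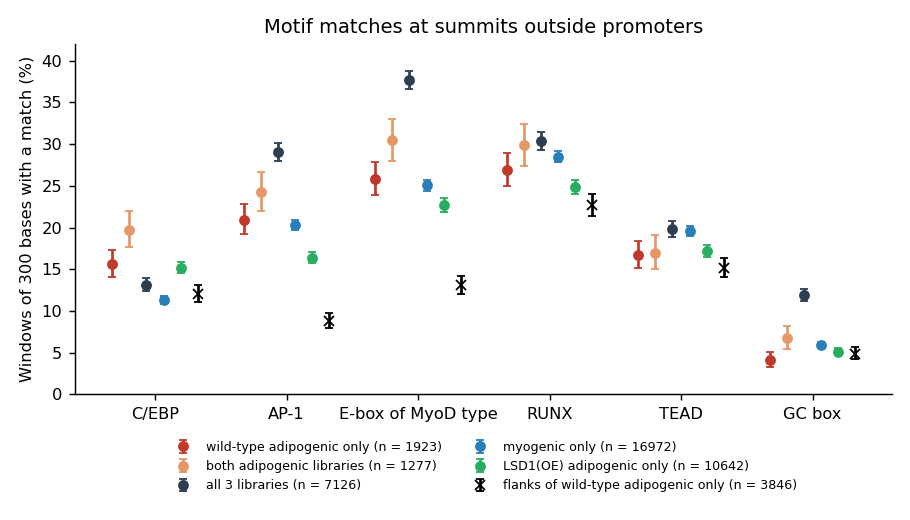
Share of distal 300-base windows with a match (y axis, percent) for 6 motifs (x axis), in adipogenic-only regions (red), other classes of regions and the flanks of the adipogenic-only regions (crosses), with 95% Wilson intervals. For the E-box and AP-1 the red points lie above the flanks and below peaks of all 3 libraries, and for C/EBP they lie at 15.6%, between regions of the myogenic list only (11.4%) and peaks of both adipogenic libraries (19.7%).

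Matches to the strings used for the receptors that the inducers activate were rare in every class of windows given here. These strings fix more letters than the E-box or AP-1 strings, so a low share was likely in any window. The shares are no measure of bound sites. The glucocorticoid receptor palindrome was found in 15 of 1923 distal adipogenic-only windows (0.78%, 0.47 to 1.28%), against 0.86% of peaks of all 3 libraries, 0.49% of regions of the myogenic list only and 0.49% of flanks. A direct repeat of the PPAR/RXR type (AGGNCANAGGNCA) was in 15 windows as well, against 0.63% of peaks of all 3 libraries and 0.55% of flanks. The cAMP response element (TGACGTCA) was in 5 windows (0.26%), against 0.86% of peaks of both adipogenic libraries, a difference of −0.60 points (−1.29 to −0.087). The differences to peaks of all 3 libraries had intervals of −0.47 to 0.46 points for the palindrome, −0.22 to 0.68 for the direct repeat and −0.43 to 0.18 for the cAMP response element, and a difference inside them was not detectable at this number of windows.

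Adipogenic-only regions were not spread evenly over the chromosomes. Chromosome 15 held 293 of them, 13.97% of all on 3.82% of the genome, and they made up 14.9% (13.4 to 16.5%) of the adipogenic peaks there, 4.20 points more than on the other chromosomes (2.62 to 5.90). Chromosome 10 held 209, or 15.1% of its adipogenic peaks (4.31 points more, 2.46 to 6.34). On chromosome 3 the share was 13.3% (2.36 points more, 0.28 to 4.75). On chromosome X, 16 of 89 peaks (17.98%, 11.4 to 27.2%) were adipogenic-only. Shares were lower than elsewhere on chromosomes 2 (8.73%), 11 (8.88%) and 12 (8.43%), with intervals below 0. Chromosome 15 was dense in peaks of every library, with 19.0 adipogenic and 35.9 myogenic peaks per Mb, against 10.6 and 23.4 on chromosome 10 and 0.52 and 2.53 on chromosome X. The part of peak density in these shares was not tested.

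Some regions came in runs. Taking regions no more than 100000 bp apart as a run, 1197 (57.1%) stood alone, 456 were in 124 runs of at least 3, and 115 in 19 runs of at least 5. Runs of other adipogenic peaks were not counted, so the runs are not shown to be particular to these regions. The largest, of 10 regions, was at chr15:57705430-58013492 around Zhx2 and Derl1, among 21 adipogenic, 26 myogenic and 23 LSD1(OE) peaks. A run of 9 at chr15:51093933-51316686, nearest Trps1 and Gm19303 and reaching into Gm19303, made up nearly all of the 10 adipogenic peaks in its span. In that span 4 myogenic and 6 LSD1(OE) peaks were called.

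The 4 genes with most regions were all on chromosome 15. The long non-coding gene model Gm19303 was nearest to 12, with scores of 50.4 to 135 at 52286 to 221175 bp from its TSS. Med30, which encodes a Mediator subunit, was nearest to 8 with scores of 51.8 to 135. The gene model Gm20740 was nearest to 7, at 72993 to 586317 bp, and Mtss1, which encodes a membrane-shaping scaffold protein, to 7 at 22780 to 63480 bp with scores of 53.2 to 86.6. These genes also had many peaks of other libraries, such as 39 myogenic peaks nearest Med30 and 44 LSD1(OE) peaks nearest Gm20740.

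The regions were nearest to 1666 genes, 6.36% of the 26180 annotated genes, of which 1370 had 1 region, 219 had 2, 54 had 3, 7 had 4 and 16 had at least 5. Of all annotated genes, 34.4% were nearest to at least 1 wild-type adipogenic peak of any kind, and 18.5% of those 9005 genes had an adipogenic-only region. Nearly all of the 1666 genes, 1555 (93.3%), were also nearest to a peak of another library. The fixed lists of genes given next are read against these shares. A share whose interval includes 18.5% cannot be told apart from that of all genes with an adipogenic peak. The lists were not matched for the number of adipogenic peaks per gene, and its part in the shares was not tested. A nearest-gene count favours genes in wide gene-poor stretches, and being nearest does not make a gene a target.

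Some genes of the responses to the inducers were among the nearest genes. Of 25 glucocorticoid-induced genes, 8 had an adipogenic-only region, which is 40.0% (21.9 to 61.3%) of the 20 with any adipogenic peak, but only 2 of the 8 had one within 10000 bp of a TSS. The strongest were 96 tags with a score of 135 at 75253 bp upstream of Foxo1, a transcription factor of the fasting response, and 62 tags with a score of 97.2 nearest Glul, glutamine synthetase. Angptl4, an inhibitor of lipoprotein lipase, had a region of 61 tags and a score of 66.6 at 7285 bp upstream, which held a C/EBP match. Mt1, the metallothionein gene, had one of 97 tags and a score of 83.6 at 13762 bp. Each of these 4 genes had 5 adipogenic peaks in all, of which 3 were adipogenic-only for Foxo1 and Glul, 2 for Mt1 and 1 for Angptl4.

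Of 25 cAMP response and phosphodiesterase genes 5 had 16 regions between them. These 5 were 25% (11.2 to 46.9%) of the 20 with an adipogenic peak, an interval that includes 18.5%. Besides Pde4b, these included Pde10a and Pde7a, further phosphodiesterase genes, with scores of 108 and 106, and Sik1, a cAMP-induced kinase gene, with 5 regions of which the strongest scored 89.0 in its own intron. Of 25 insulin and IGF pathway genes 4 had one, 20% (8.07 to 41.6%) of the 20 with an adipogenic peak, which is near the 18.5% of all such genes. The 4 were Igfbp3, Igfbp5, Igfbp2, which encode binding proteins for insulin-like growth factors, and Pik3r1, the regulatory subunit of PI3-kinase. The strongest region of Igfbp3 scored 203 with 150 tags but lay 492411 bp from its TSS. That of Igfbp2 scored 81.8 at 5908 bp. Among the thyroid hormone genes, Slc16a10, a thyroid hormone transporter gene, had a region with 99 tags and a score of 128 in its own intron.

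Genes of the adipocyte programme had shares that could not be told apart from that of all genes with an adipogenic peak. Of 33 adipocyte and lipid metabolism genes 1 had a region, Acsl1, the long-chain acyl-CoA synthetase gene, with 58 tags and a score of 64.0 at 24636 bp. That is 5.56% (0.988 to 25.8%) of the 18 with an adipogenic peak, and the interval includes the 18.5% of all genes with one. Of 29 adipogenic regulators 5 had a region (26.3%, 11.8 to 48.8% of the 19 with a peak), an interval that also includes 18.5%. Tle3, a corepressor, had one of 100.9, Nfix one of 77.9, Ebf3 one of 57.9 and Cebpg, a C/EBP family gene, one of 54.0 inside an intron of Pepd. All these scores were below the median of 112 of the adipogenic list.

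Some muscle genes were nearest to adipogenic-only regions. Of 30 myogenic regulators 7 had one, 35.0% (18.1 to 56.7%) of the 20 with an adipogenic peak. That interval includes the 18.5% of all genes with an adipogenic peak. Eya4, a transcriptional coactivator, had 6 with the strongest at a score of 108 in its own intron. Mrtfa, the coactivator of Srf, had one of 76.4, Vgll2, a TEAD cofactor, one of 65.6 and Tcf4, an E-protein, one of 64.5. Among the sarcomere genes, regions with a score of 74.7 at Pdlim5, 73.7 at Actn1 and 59.5 at Tpm2 lay within 10000 bp of a TSS. The share of the sarcomere list is not reported here.

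Genes of Lsd1 complexes and of factors that recruit Lsd1 had a region in 4 of 24 cases, 25% (10.2 to 49.5%) of the 16 with an adipogenic peak. They were Gfi1 (score 95.8, inside an intron of Evi5), Gse1 (90.3), Zeb2 (72.8) and Zeb1 (53.2). Gfi1, Zeb1 and Zeb2 encode repressors that bind DNA, and Gse1 a subunit of such complexes. The gene of Lsd1 itself, Kdm1a, had none.

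Among 30 collagen and matrix genes 11 had a region, 45.8% (27.9 to 64.9%) of the 24 with an adipogenic peak. Col4a2 had the strongest, with a score of 102 at 143311 bp, followed by Col5a1 (68.2, in its own intron), Col14a1 (67.4) and Adamts1 (67.1). Only 1 of the 11 genes had a region within 10000 bp of a TSS. Of 30 Wnt and TGF-beta pathway genes 6 had a region (26.1%, 12.5 to 46.5% of the 23 with an adipogenic peak), led by the inhibitory Smad gene Smad6 with a score of 74.5, Bmpr1a with 71.0, Tgfbr3 with 70.5 and Smad1 with 62.2. Of 18 genes of AP-1, Runx and Tead factors 5 had a region (33.3%, 15.2 to 58.3% of the 15 with a peak), with a score of 82.1 nearest Jun, 63.8 nearest Runx2, 59.6 nearest Jund and 59.2 in an intron of Fosl2.

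The study listed genes whose transcripts moved in opposite directions on Lsd1 knockdown and LSD1 overexpression in C2C12 cells. Of the 270 matched genes that went up with LSD1 overexpression, 48 (17.8%, 13.7 to 22.8%) had an adipogenic-only region, or 25.5% (19.8 to 32.2%) of the 188 with an adipogenic peak. The strongest were nearest Akap6, a muscle anchoring protein gene (score 220, 136 tags, 7277 bp upstream), Hjv, hemojuvelin (165), Tef (135) and the gene model D830031N03Rik (130). The region nearest Hjv missed a myogenic peak by 20 bp. Of the 69 matched genes that went down, 15 (21.7%, 13.6 to 32.8%) had one, or 28.3% (17.97 to 41.6%) of the 53 with an adipogenic peak. One was a promoter region, at Ptgs1, cyclooxygenase 1, with 86 tags and a score of 134 at 1382 bp from the TSS and 140 bp from a myogenic peak. The others named by the rule were nearest Hmga2 (122), Efnb2 (89.5) and Cxcl5 (88.4). These shares describe nearest genes and were not tested.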

How the data were processed

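Lsd1 ChIP-seq of C2C12 cells was analysed from the peak lists of 3 ChIP libraries, each called by the authors against its own input. Single reads of 50 bases were mapped to mm10, with Bowtie per the study's methods and Bowtie2 per the labels. Per the file headers, peaks were called with MACS 1.4.2 (the labels give 1.41) at a p cut-off of 1e-05. For each peak the deposited list holds a count of ChIP tags after the duplicate filter, a score (10 times −log10 p, with the smaller library scaled up to the larger), a fold enrichment over the local background and an FDR in percent. Filtered ChIP tags numbered 63915769 in the adipogenic library with 18893 peaks, 46155625 in the myogenic one with 43426 peaks and 55193310 in that of LSD1(OE) cells with 33533 peaks. The score groups are the 4 quartile groups of the adipogenic list.

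The members, gene lists, motifs and the rule for named genes were chosen with earlier results of these data known. Named genes are the 8 regions with the highest score, the 8 highest at promoters, the 5 genes with most regions (ties by summed tags, which put Pde4b before 4 other genes with 6), up to 4 genes per fixed list by score, and the 3 regions on either side of the overlap rule. Peaks were assigned to the nearest of 31647 curated RefSeq TSSs of 26180 genes (GRCm38.p6), by their centre. Motifs were counted on both strands in 300 bases around the summit, and a window counts for every motif it holds. Some genes that this rule names are not reported here. The names of genes regulated in opposite directions were matched by symbol. Shares have 95% Wilson intervals and differences Newcombe intervals. No test was run, since each condition has 1 library and regions are not replicates. Steps were tested on simulated data. Sequences were read with pysam 0.24.0, intervals computed with SciPy 1.17.1 and figures drawn with matplotlib 3.10.9, in Python 3.11.15 (pandas 2.3.3, NumPy 2.4.6).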

Additional observations from a re-analysis of the deposited data

How the results depend on the processing

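Of 102 alternatives to 40 values, 61 left the value within its interval, a difference on its side of 0 or a count within 1.5 times. The number of adipogenic-only regions and their share of the adipogenic list became 546 and 6.04% at an FDR of at most 0.1% in all lists, 734 and 6.95% at a score of at least 100 in all lists, 307 and 2.91% at that score in the adipogenic list only, and 4273 and 22.6% with equal numbers of the strongest peaks, since the other lists are then cut shorter. The share became 13.5% with ChIP tags not scaled up, 8.02% with peaks within 1000 bp counted as shared and 15.1% when overlap had to cover 50% of the adipogenic peak. The promoter share became 12.5, 10.1, 6.67 and 9.98% under the last 4 of these, 5.10 and 17.98% with windows of 1000 and 5000 bp, and 13.2% with all RefSeq transcripts. At a score of at least 100 in the adipogenic list, 45.9% were intronic, 42.3% intergenic, and the shares on chromosomes X, 15 and 10 were 7.41, 4.27 and 4.72%, against 2.91% overall. The median gap was 4206 bp centre to centre, and over whole peaks the median GC content was 45.7% and the median repeat content 14.7%. With 200 bases, C/EBP, AP-1, E-box and RUNX shares were 11.2, 14.7, 18.5 and 18.9%. Nearest genes numbered 740 with a TSS within 10000 bp and 295 at a score of at least 100.

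Of the settings for motif differences, the lowest score group and the limit of 1000 bp were chosen after the data were seen, and the 200-base window was planned. In the lowest score quartile group the C/EBP difference to peaks of all 3 libraries was 1.60 points and the GC box difference to peaks of both adipogenic libraries −1.34, both with intervals including 0. The C/EBP difference to peaks of both adipogenic libraries turned to 0.138 points there, and the TEAD difference became −4.33, while the TEAD difference turned to 0.334 with regions over 1000 bp from other peaks. The AP-1 difference to both adipogenic libraries stayed negative, but its interval included 0 in 3 settings. These were 200 bases (−2.43), the lowest group (−3.01) and regions over 1000 bp from other peaks (−1.50). In the last of these the AP-1 difference to regions of the myogenic list only rose to 2.42. The causes were not tested. The promoter share stayed below that of peaks of all 3 libraries in every window and score quartile group tried.

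No paired analysis was possible because each condition has 1 ChIP library. Depth limits what can be said. The smallest called peaks held 27 to 35 tags. The tags of these regions in the other libraries were not counted, so the regions cannot be called free of Lsd1 there. The adipogenic list is the shortest of the 3 although its ChIP library is the deepest. Filtered input tags were 1.28 times the ChIP tags in the adipogenic condition, against 1.90 times in the myogenic one and 1.82 times in LSD1(OE) cells. The part of this scaling in the list lengths was not tested.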

Other observations

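Of the 1666 genes nearest to adipogenic-only regions, 111 (6.66%) were nearest to no peak of either other library. Of these 111, 86 were protein coding, against 1328 (79.7%) of all 1666. The same share among all genes with an adipogenic peak was not computed. The 111 genes were singled out after their values were seen. The region with the highest score among them was in an intron nearest Barx2, a homeobox transcription factor gene, with 127 tags and a score of 172 at 53151 bp from the TSS. The next was nearest Erich5, with 142 tags and a score of 168. Besides Nacad and Riok3, the promoter of Pla2g2e, a secreted phospholipase gene, held such a region, with 83 tags and a score of 135 at 247 bp from the TSS. Calcrl, the receptor gene for adrenomedullin and related peptides, had an intronic region with 85 tags and a score of 120. Smcr8, an autophagy gene, had one with 65 tags and a score of 105 in the last, untranslated part of a transcript.

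A run of 6 regions with scores up to 103 lay at chr17:31692638-31900184 around Sik1 and Cryaa, where 18 adipogenic, 18 myogenic and 26 LSD1(OE) peaks were called, and a run of 8 at chr13:99170112-99398993 around Zfp366 and Ptcd2. The strongest region of any run of 6 or more scored 173, at chr8:120108687-120295514 near 6430548M08Rik and Cibar2.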
